A study of Mus musculus with 12 samples.

Results

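The genes described here mainly encode the cytosolic translation factors of initiation and elongation and the aminoacyl-tRNA synthetases of the cytosol and mitochondria. They were chosen by gene symbol (the families Eif1 to Eif6, Eef1 and Eef2, the synthetase symbols ending in "ars" with or without a number, and Eprs, leaving out Eif2ak4 and Eif2s3y) and not by any measured value. This choice also takes in regulators and partners of these proteins, such as Eif2ak3, Eif4ebp2, Eif4enif1 and Eef1e1. The array names 73 symbols of this kind, 59 of which had values in all samples, out of 6427 named genes measured. The other 14 (Ears2, Eef2k, Eef2kmt, Eif2a, Eif2b3, Eif3i, Eif4e3, Eif4g3, Fars2, Lars2, Sars2, Vars2, Wars2 and Yars) had no usable value. The 59 genes were read by 120 spotted cDNA clones, 37 of them by at least 2 spots and 22 by 1 spot.

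The study compared brains of P10 C57Bl/6j mice that were wildtype, Gja9_het (Gja9 +/-) or Gja9_null (Gja9 -/-), with 4 samples of each genotype. Gja9 is an older symbol of Gjd2, the gene of a connexin that forms electrical synapses between neurons. Each sample was 1 colour of a spotted cDNA array, and 2 samples of the same genotype shared an array, so each genotype rests on 2 arrays. The labels do not say how the mutant allele was made, and the array has 0 probes named for the targeted gene, so the genotypes could not be checked from the values. Nothing in the labels states that each sample came from a separate animal, although the design text calls them biological replicas. If they do not, the p-values measure only a technical spread. In whole brain, fewer cells of a type and less RNA per cell cannot be told apart.

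Translation begins when eIF2, carrying GTP and the initiator tRNA, joins the small ribosomal subunit with eIF1A, eIF3 and eIF5, while eIF4E and its partners bring in the capped mRNA. After each round eIF2 is recharged with GTP by eIF2B, the step that eIF2 kinases block under stress, and partial loss of eIF2B function in humans causes a disease of brain white matter. During elongation eEF1A delivers aminoacyl-tRNAs made by the synthetases and eEF2 moves the ribosome along the mRNA, and inherited defects of several synthetases affect nerve and brain.

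Values are log2 signals relative to the mean signal of the same sample, so a difference of 1 is a 2-fold change in relative signal. Differences between genotypes come from limma fits on all 9514 features, with the array as a random block. A feature was called at an adjusted p (Benjamini-Hochberg over all features) under 0.05.

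None of the 59 genes passed the test in any comparison. Between Gja9_null and wildtype brains 0 of 59 were called, where 0.326% of all features were, and the smallest adjusted p of a member was 0.308 (limma). Between Gja9_het and wildtype 0 of 59 were called, with 0% of all features and a smallest adjusted p of 0.99996. Between Gja9_null and Gja9_het 0 of 59 were called, with 0.273% of all features and a smallest adjusted p of 0.242. At an unadjusted p under 0.05 there were 4 of 59 members for Gja9_null against wildtype (11.6% of all features), 2 of them higher (2.41%) and 2 lower (9.22%). There were 0 of 59 for Gja9_het against wildtype (2.19%; 1.67% higher and 0.515% lower), and 2 of 59 for Gja9_null against Gja9_het (15%), 0 higher (3.64%) and 2 lower (11.3%). The share of members below that p was therefore under the share of all features in each comparison, on the values as deposited.

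The median difference over the 59 genes was -0.06 for Gja9_null minus wildtype, beside -0.10 over all features. For Gja9_het minus wildtype it was 0.01, beside 0.03, and for Gja9_null minus Gja9_het it was -0.05, beside -0.17. Rescaling of the samples moved the all-feature medians by more than 0.1: quantile normalization brought the first to 0.02 and the third to -0.01. Against wildtype, 28 genes had a higher and 31 a lower value in Gja9_null (41.1% of all features were higher), and the quartiles were -0.35 and 0.25. In Gja9_het 31 were higher and 28 lower (54.4% of all features higher), with quartiles of -0.19 and 0.13. The sign of a member's difference was the same under the values as deposited and all 4 other scalings tried for 45 of 59 genes in Gja9_null and 41 of 59 in Gja9_het. For the other 14 and 18 genes the sign depended on the scaling.

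The precision was set by the arrays. The median standard error of a member's difference was 0.35, and the median half-width of its 95% interval was 0.74. For Gja9_null minus wildtype the whole interval lay between -1 and 1 for 26 of 59 genes (38.6% of all features), and for Gja9_het minus wildtype this held for 35 of 59 (51.9%). Changes smaller than these intervals were not detectable with 2 arrays per genotype. A difference beyond the half-width of its interval could still miss a call. For Gja9_null minus wildtype, Rars differed by -0.93 with a half-width of 0.75 and an adjusted p of 0.330 (limma). Over the members, both wildtype arrays differed by a median of 0.29, both Gja9_null arrays by 0.42 and both Gja9_het arrays by 0.28. The widest gaps were 1.41 for Eif3h in wildtype, 1.95 for Gars in Gja9_null and 0.97 for Sars in Gja9_het. The colours of 1 array lay much closer together, with median gaps of 0.07 to 0.10. On the first Gja9_null array, stretches of neighbouring probe numbers had median deviations between -1.35 and 0.48, so many of the differences below are given also after centring on the 50 measured probes on either side, called local centring. With it 0 members were called, and the counts at an unadjusted p under 0.05 were 5 higher and 1 lower for Gja9_null minus wildtype (6.99% and 8% of all features), 0 and 1 for Gja9_het minus wildtype (4.73% and 2.43%), and 8 and 1 for Gja9_null minus Gja9_het (8.88% and 11.5%).

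**Figure D1:**
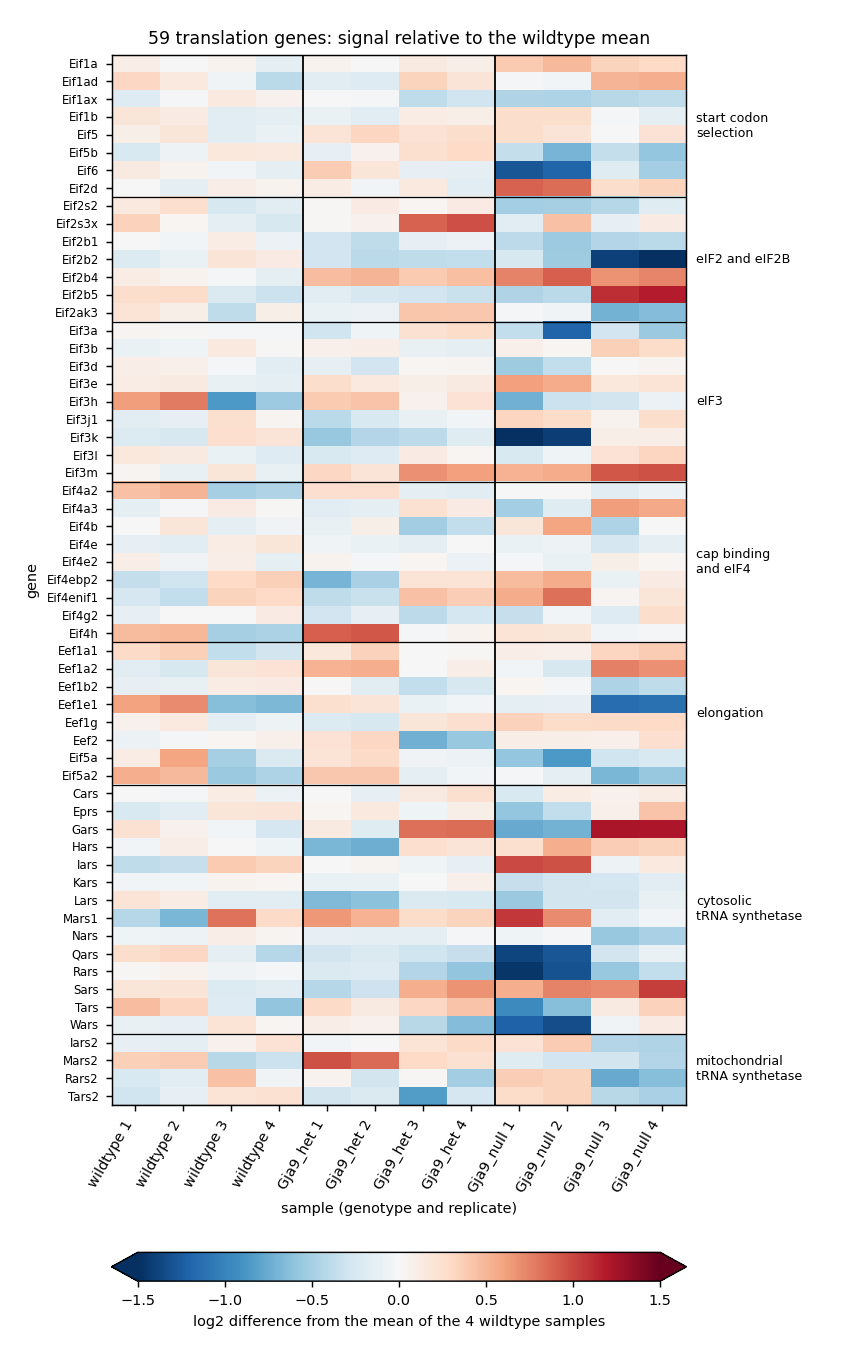
Difference of each of the 59 genes (lines, grouped by role) from its mean in the wildtype samples, in log2 units. The columns are the 12 samples, by genotype. Columns of 1 array resemble each other more than columns of 1 genotype. Taken instead from each gene's mean over the 12 samples, which is not drawn, the members' median deviation per sample lies between -0.08 and 0.06.

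The genes of eIF2 and its exchange factor eIF2B held the highest difference between Gja9_null and wildtype and the second lowest. The 7 genes measured in this group include the eIF2 kinase gene Eif2ak3, which encodes no subunit of either factor. Of these 7, 3 had a higher and 4 a lower value in Gja9_null than in wildtype (2 to 3 higher under the other scalings). Their median difference of -0.36 was the value of Eif2ak3 itself, which was among the 4 lower, and 0 were called. Eif2b4 (entrez 13667) encodes the delta subunit of eIF2B. Its values were -0.76, -0.81, -0.89 and -1.0003 in wildtype samples 1 to 4, -0.40, -0.36, -0.47 and -0.41 in Gja9_het, and -0.12, 0.03, -0.19 and -0.13 in Gja9_null. In these averages over its spots, all Gja9_null samples lay above all Gja9_het samples, which lay above all wildtype samples. The difference was 0.76 ± 0.28 (SE) for Gja9_null minus wildtype (adjusted p = 0.308, limma), 0.45 ± 0.28 for Gja9_het minus wildtype (adjusted p = 0.99996) and 0.31 ± 0.28 between the mutant genotypes (adjusted p = 0.617). Local centring left 0.52 for Gja9_null minus wildtype.

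The 3 spots of Eif2b4 did not give the same picture. Their Gja9_null minus wildtype differences were 0.13 ± 0.41, 0.12 ± 0.33 and 2.04 ± 0.44, and the last had an adjusted p of 0.083 among all probes tested singly with limma. On that spot the wildtype samples read -0.15, -0.20, -1.45 and -1.55, the Gja9_het samples 0.93, 1.13, 0.10 and 0.20, and the Gja9_null samples 1.12, 1.27, 1.23 and 1.18. The size of the gene's difference thus comes mostly from 1 of its 3 spots, on which the wildtype arrays lay more than 1 unit apart. The order of the genotypes without overlap held for the average and on none of the 3 spots. On the last spot the highest Gja9_het sample (1.13) lay just above the lowest Gja9_null sample (1.12). On the others wildtype and Gja9_null overlapped.

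Eif2b1 (entrez 209354), the alpha subunit of eIF2B, was ordered the other way. It read -1.44, -1.50, -1.34 and -1.54 in wildtype, -1.74, -1.84, -1.58 and -1.54 in Gja9_het, and -1.85, -1.99, -1.90 and -1.86 in Gja9_null. The genotypes did not overlap, although the lowest wildtype and the highest Gja9_het sample both round to -1.54. The difference of Gja9_null from wildtype was -0.45 ± 0.28 (adjusted p = 0.582, limma) and -0.22 after local centring, but its spots gave 0.68 ± 0.44 and -1.58 ± 0.40. On gene averages, Eif2b4 was the only member whose genotypes were ordered upwards without overlap from wildtype through Gja9_het to Gja9_null (0.273% of all features were). Eif2b1 was the only one ordered downwards (0.505%). This ordering was singled out after the values were seen.

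Eif2b2 (entrez 217715), the beta subunit, read -2.33, -2.23, -1.93 and -2.01 in wildtype, -2.41, -2.53, -2.51 and -2.49 in Gja9_het, and -2.36, -2.66, -3.52 and -3.62 in Gja9_null. The first Gja9_null array lay close to the other genotypes and the second lay far below them. The difference of Gja9_null from wildtype was -0.91 ± 0.37 (adjusted p = 0.364, limma) and -0.31 after local centring. Gja9_het differed from wildtype by -0.36 ± 0.37.

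None of the remaining genes of the set was called. Eif2b5, the catalytic epsilon subunit, differed by 0.36 ± 0.40 in Gja9_null and by -0.25 ± 0.40 in Gja9_het from wildtype, and by 0.61 ± 0.40 between Gja9_null and Gja9_het (adjusted p = 0.486, limma). Local centring brought the first to 0.61 and the last to 0.97 ± 0.23, with an adjusted p of 0.0567 (limma), the smallest of any member with that scaling. Its Gja9_null samples split by array, at -2.33 and -2.29 on one and -0.77 and -0.70 on the other. Eif2s2, the beta subunit of eIF2, gave -0.41 ± 0.27 and 0.07 ± 0.27, and Eif2s3x, the gamma subunit encoded on the X chromosome, gave 0.07 ± 0.56 and 0.48 ± 0.56. Eif2ak3, which encodes PERK, the eIF2 kinase of the endoplasmic reticulum, gave -0.36 ± 0.42 and 0.16 ± 0.42.

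**Figure D2:**
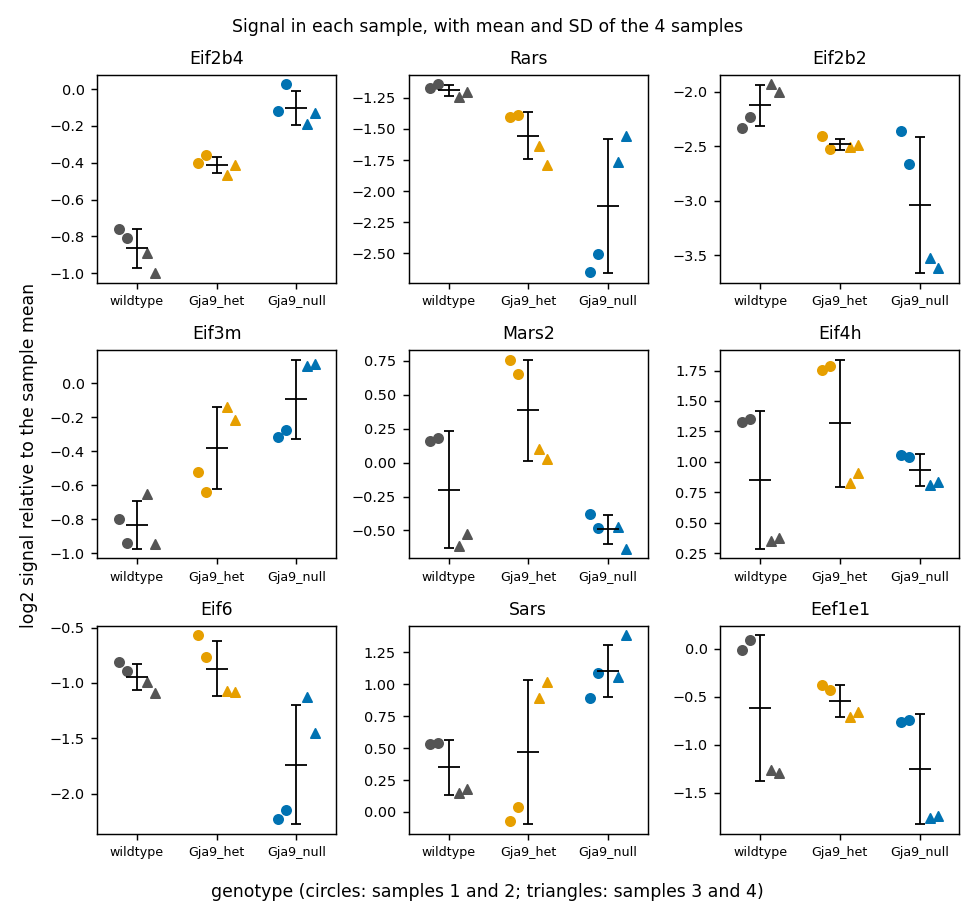
Log2 value of each of the 12 samples for the 9 members that are among the 4 of smallest p in a comparison, by genotype. Circles are the samples of 1 array of a genotype and triangles those of the other, and bars give the mean and SD of the 4 samples. Averaged over its spots, Eif2b4 is ordered by genotype without overlap, while in Eif2b2, Eif6 and Rars the arrays of Gja9_null lie far apart.

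Among the 8 factors of scanning, start codon selection and subunit joining, 5 had a higher and 3 a lower value in Gja9_null than in wildtype, with a median of 0.13 and 0 called (4 to 5 higher under the other scalings). Eif6 (entrez 16418) encodes the factor that keeps the large ribosomal subunit from joining early. It read -0.81, -0.89, -0.99 and -1.09 in wildtype, -0.57, -0.76, -1.07 and -1.08 in Gja9_het, and -2.23, -2.15, -1.12 and -1.45 in Gja9_null. All Gja9_null samples lay below those of the other genotypes, by little on the second array. The difference was -0.79 ± 0.37 from wildtype (adjusted p = 0.431, limma) and -0.87 ± 0.37 from Gja9_het (adjusted p = 0.301). After local centring these were -0.20 and -0.29.

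Eif2d, which delivers tRNA to the small subunit and takes part in recycling, was higher in Gja9_null than in wildtype by 0.58 ± 0.33 (adjusted p = 0.530, limma) and than in Gja9_het by 0.57 ± 0.33 (0.39 and 0.26 after local centring). The eIF1A genes gave opposite signs: Eif1a differed by 0.38 ± 0.28 and Eif1ax by -0.43 ± 0.29 in Gja9_null, each without overlap with wildtype. These are near-identical genes, and cDNA spots may read both transcripts, so which gene a spot measured is uncertain. Eif1b, a close relative of eIF1, gave 0.09 ± 0.26. Eif5, the GTPase activating protein of eIF2, gave 0.17 ± 0.28 over 4 spots, and Eif5b, the GTPase of subunit joining, -0.50 ± 0.40. In Gja9_het all 8 lay between -0.18 and 0.25 of wildtype.

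Of the 9 measured subunits of eIF3, the scaffold that holds the small subunit and the mRNA together, 5 had a higher and 4 a lower value in Gja9_null than in wildtype, with a median of 0.06 and 0 called (5 higher under every other scaling too). Eif3m (entrez 98221) read -0.80, -0.94, -0.65 and -0.95 in wildtype, -0.52, -0.64, -0.14 and -0.22 in Gja9_het, and -0.32, -0.28, 0.10 and 0.12 in Gja9_null. All samples of both mutant genotypes lay above all wildtype samples, and the mutant genotypes overlapped each other. The difference was 0.74 ± 0.32 in Gja9_null (adjusted p = 0.392, limma) and 0.45 ± 0.32 in Gja9_het (adjusted p = 0.99996). Both spots had the same sign in Gja9_null, at 0.68 and 0.80. Local centring gave 0.96 ± 0.21 with an adjusted p of 0.060 (limma), just short of a call.

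Eif3k had the lowest difference of the subunits in Gja9_null, at -0.70 ± 0.42, but -0.13 after local centring, and -0.40 ± 0.42 in Gja9_het. Eif3a, the largest subunit, gave -0.60 ± 0.62 and, after local centring, the lowest value of the subunits at -0.58, and its 5 spots ranged from -1.57 to 0.50. Eif3d and Eif3l, with 3 spots each, gave -0.22 ± 0.32 and 0.06 ± 0.31. Subunits of the 1 complex therefore had no common direction in these samples.

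The 9 genes of cap binding and the eIF4 group had a narrow span between Gja9_null and wildtype, from -0.14 for Eif4e, the cap-binding protein, to 0.40 for Eif4enif1, its carrier into the nucleus. Of these, 5 were higher and 4 lower (6 to 7 higher under the other scalings), with a median of 0.08 and 0 called. Eif4e2, a cap-binding relative read by 5 spots, differed by 0.00 ± 0.26 in Gja9_null and -0.01 ± 0.26 in Gja9_het. Eif4ebp2, an inhibitor of eIF4E that is abundant in brain, gave 0.26 ± 0.35 and -0.19 ± 0.35. The scaffold gene Eif4g2 gave -0.08 ± 0.32 and -0.26 ± 0.32. The helicase genes Eif4a2 and Eif4a3 gave -0.06 ± 0.31 and 0.13 ± 0.40 in Gja9_null, and the helicase cofactor Eif4b gave 0.08 ± 0.36 over 3 spots.

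Eif4h, another cofactor of the eIF4A helicase, was among the first members in the comparison of Gja9_het with wildtype. It read 1.33, 1.35, 0.35 and 0.37 in wildtype, 1.75, 1.79, 0.83 and 0.91 in Gja9_het, and 1.06, 1.04, 0.81 and 0.83 in Gja9_null. The arrays of wildtype and of Gja9_het were each about 1 unit apart, and the genotypes overlapped. The difference in Gja9_het was 0.47 ± 0.35 (adjusted p = 0.99996, limma).

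The 8 genes of the elongation group include Eef1e1, which encodes a synthetase scaffold and had the lowest difference, -0.63 ± 0.40. With it the group was divided equally in Gja9_null, 4 higher and 4 lower (5 higher with local centring), with a median of -0.04 and 0 called. The equal split and the sign of the median depend on counting Eef1e1. The gene of eEF1A in most cells, Eef1a1, differed by 0.22 ± 0.29 and that of mature neurons and muscle, Eef1a2, by 0.29 ± 0.35. In Gja9_het these were 0.13 ± 0.29 and 0.29 ± 0.35. These paralogues share much of their coding sequence, so their spots may read each other. Eef2 gave 0.13 ± 0.31 and -0.19 ± 0.31, and Eef1g, a subunit of the eEF1A exchange factor read by 5 spots, 0.30 ± 0.27 and 0.00 ± 0.27. The eIF5A genes, whose product relieves stalled ribosomes, gave -0.49 ± 0.49 for Eif5a and -0.36 ± 0.36 for Eif5a2 in Gja9_null, the latter turning to 0.10 with local centring.

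Eef1e1 encodes a scaffold protein of the complex that holds several synthetases. It read -0.01, 0.09, -1.26 and -1.29 in wildtype, -0.38, -0.43, -0.72 and -0.66 in Gja9_het, and -0.76, -0.74, -1.76 and -1.74 in Gja9_null. All Gja9_null samples lay below all Gja9_het samples, while the first wildtype array lay above all of these and the second between both Gja9_null arrays. The difference of Gja9_null from Gja9_het was -0.70 ± 0.40 (adjusted p = 0.420, limma) and -0.25 after local centring.

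**Figure D3:**
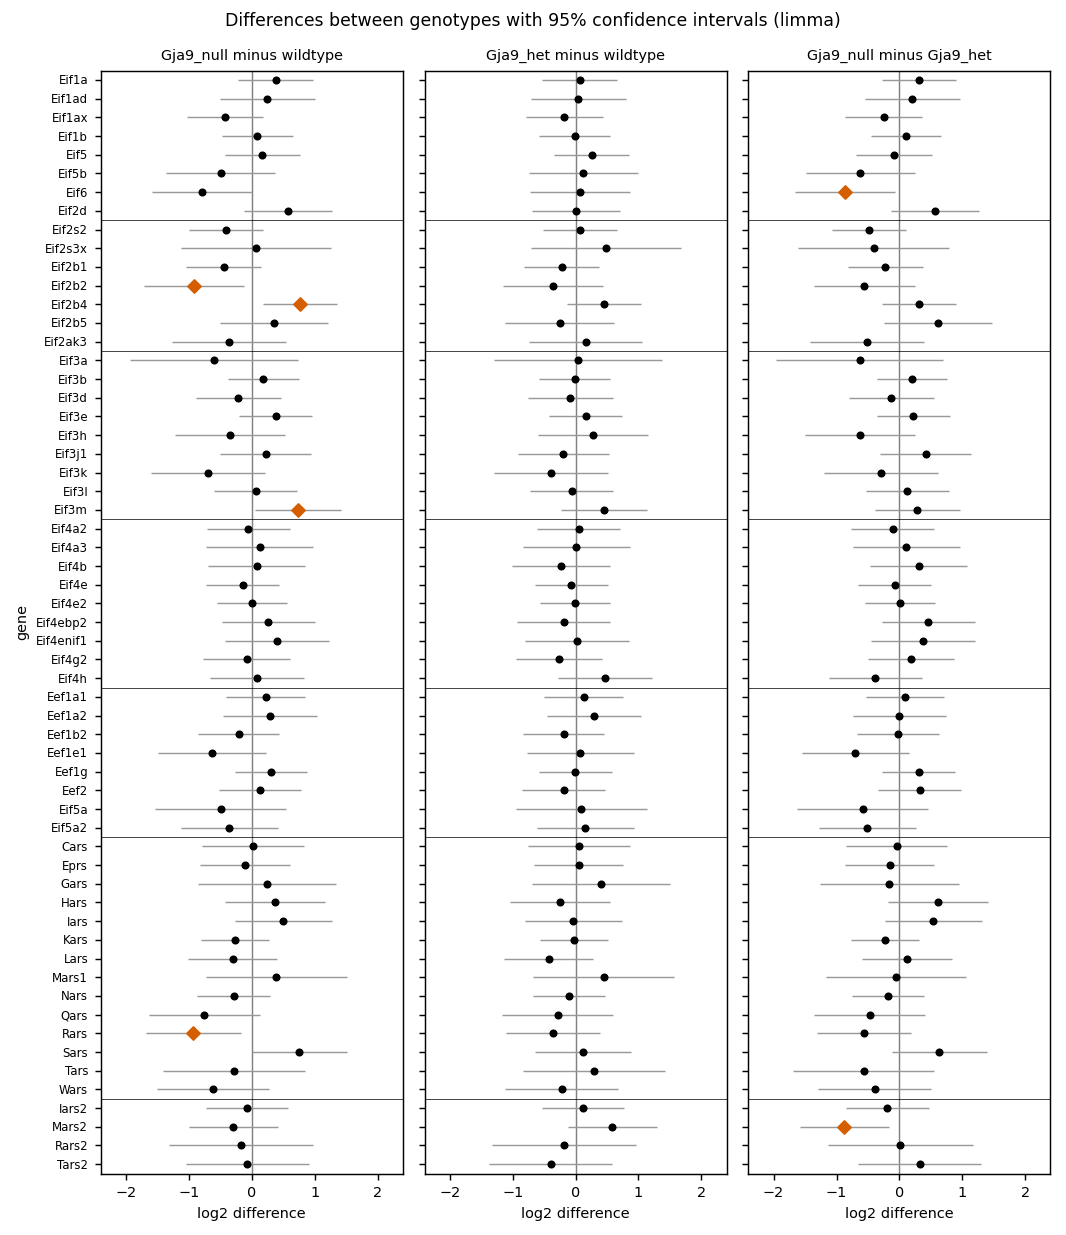
Difference of each member from wildtype in Gja9_null and in Gja9_het, and between Gja9_null and Gja9_het. Bars are 95% intervals from limma in log2 units, and members are grouped by role. Diamonds mark an unadjusted p under 0.05 (limma), and none of these members was called. For Gja9_null minus wildtype the points run from -0.93 for Rars to 0.76 for Eif2b4, and 26 of 59 intervals lie wholly between -1 and 1.

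Of the 14 cytosolic synthetases, 6 had a higher and 8 a lower value in Gja9_null than in wildtype, with a median of -0.19 and 0 called. Under the other scalings 6 to 8 were higher, and the median turned to 0.03 with quantile normalization and 0.05 with local centring. Rars (entrez 104458), the arginine enzyme, read -1.17, -1.14, -1.25 and -1.21 in wildtype, -1.40, -1.39, -1.63 and -1.79 in Gja9_het, and -2.65, -2.50, -1.76 and -1.56 in Gja9_null. Both mutant genotypes lay below all wildtype samples and overlapped each other. The difference was -0.93 ± 0.35 in Gja9_null (adjusted p = 0.330, limma; -0.50 after local centring) and -0.36 ± 0.35 in Gja9_het (adjusted p = 0.99996). Its 3 spots gave -0.04, -0.42 and -2.32 in Gja9_null. The last of these lies among the highest probe numbers of the array, and local centring brought it to -1.11.

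Sars, the serine enzyme, lay at the other end. It read 0.53, 0.54, 0.15 and 0.18 in wildtype, -0.07, 0.04, 0.90 and 1.02 in Gja9_het, and 0.89, 1.09, 1.06 and 1.38 in Gja9_null. All Gja9_null samples were above all wildtype samples, and the Gja9_het arrays fell on either side of wildtype. The difference in Gja9_null was 0.76 ± 0.36 (adjusted p = 0.431, limma), from 1 spot, and 0.46 after local centring.

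Qars, the glutamine enzyme, differed by -0.76 ± 0.41 in Gja9_null (adjusted p = 0.517, limma), but by 0.05 after local centring. Lars, the leucine enzyme read by 3 spots, gave -0.30 ± 0.33 in Gja9_null and -0.43 ± 0.33 in Gja9_het. Kars, the lysine enzyme, gave -0.26 ± 0.25 and -0.03 ± 0.25. Hars, the histidine enzyme, differed by 0.62 ± 0.37 between Gja9_null and Gja9_het (0.37 after local centring). Gars, the glycine enzyme, whose mutations cause a peripheral neuropathy, differed by 0.24 ± 0.51 in Gja9_null, where its samples read -1.39, -1.34, 0.59 and 0.57. After local centring the difference was 1.10 ± 0.29 (adjusted p = 0.101, limma), the highest of any member with that scaling. As deposited, the first Gja9_null array lay below the wildtype samples and the second above them. The others (Cars, Eprs, Iars, Mars1, Nars, Tars and Wars) lay between -0.62 and 0.50 in Gja9_null and between -0.22 and 0.45 in Gja9_het.

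Of the 4 mitochondrial synthetases, which charge tRNAs for the respiratory chain subunits made in the organelle, 0 had a higher value in Gja9_null than in wildtype as deposited, but 3 of 4 did after quantile normalization or cyclic loess, 2 after median centring and 1 after local centring. None was called. Mars2, the methionine enzyme, was the first member by p in both comparisons that involve Gja9_het. It read 0.16, 0.18, -0.61 and -0.52 in wildtype, 0.76, 0.66, 0.10 and 0.03 in Gja9_het, and -0.38, -0.48, -0.47 and -0.63 in Gja9_null. Gja9_het lay above Gja9_null in every sample and overlapped wildtype. The difference was 0.58 ± 0.33 for Gja9_het minus wildtype (adjusted p = 0.99996, limma) and -0.88 ± 0.33 for Gja9_null minus Gja9_het (adjusted p = 0.242). After local centring these were 0.25 and -0.33. Iars2, Rars2 and Tars2 differed by -0.07, -0.17 and -0.07 in Gja9_null.

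The samples of 2 genotypes did not overlap for some members in each comparison. All Gja9_null samples lay above all wildtype samples for 9 members (15.3%, beside 7.52% of all features), and below them for 8 (13.6% beside 15.6%). For Gja9_het against wildtype the counts were 3 above (5.08% beside 8.67%) and 5 below (8.47% beside 6.09%). For Gja9_null against Gja9_het they were 5 above (8.47% beside 10.2%) and 10 below (16.9% beside 22.5%). The members' shares thus lay above those of all features in 2 of these 6 counts and below them in 4.

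Spots of 1 gene often disagreed. Of the 37 genes with at least 2 spots, all spots had the same sign in 16 for Gja9_null minus wildtype (43.2%, beside 43.2% of 2586 genes with several spots on the array), in 16 for Gja9_het minus wildtype (43.2% beside 40.7%) and in 17 for Gja9_null minus Gja9_het (45.9% beside 44.9%). The spots of a member spanned a median of 0.51, 0.42 and 0.66 in these comparisons. Spans over 1 occurred in 12, 3 and 12 genes, the widest being 2.27 for Rars, 1.56 for Eif2b4 and 2.70 for Rars.

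Members whose same clone was spotted more than once gave a measure of this without a difference in sequence. The Eef2 clone, spotted 4 times, gave Gja9_null minus wildtype differences of -0.21, 0.77, -0.13 and 0.08. The repeated Eef1g clone gave 0.34, 0.45 and -0.08, and the repeated Eif4g2 clone -0.32 and 0.28. Over all genes the median gap was 0.34 between repeat spots of 1 clone (91 pairs) and 0.47 between different clones of 1 gene (5758 pairs). Over the members it was 0.48 in 10 pairs of repeat spots and 0.48 in 87 pairs of different clones.

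**Figure D4:**
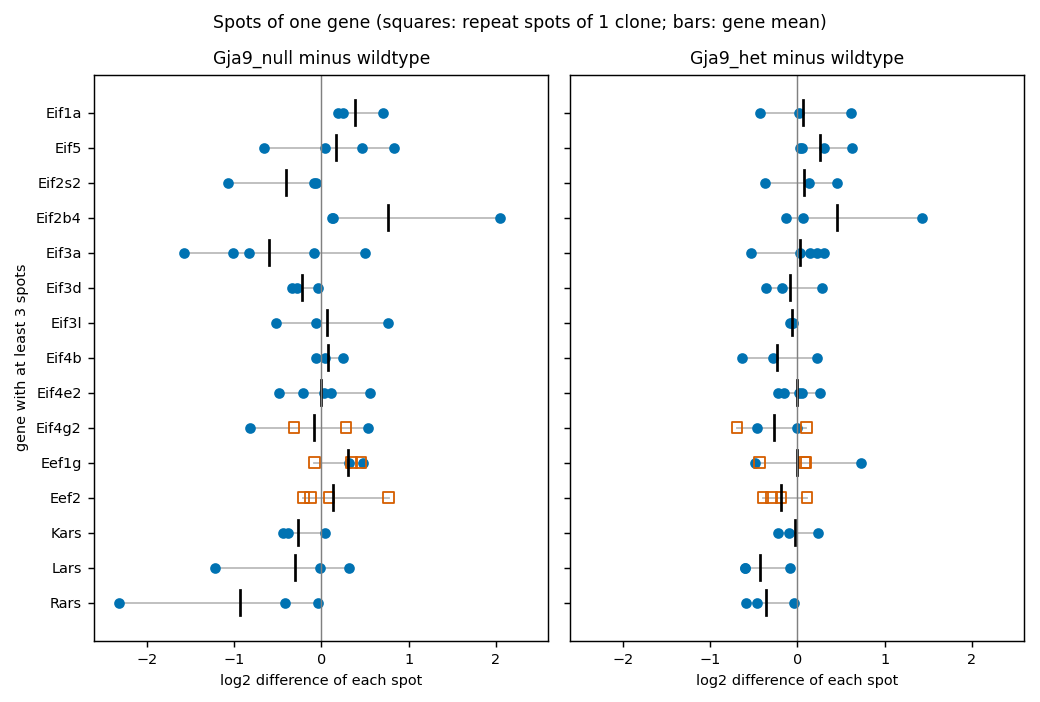
Difference from wildtype of each spot of members with several spots, in log2 units. Over all 37 members with at least 2 spots, drawn or not, the widest span for Gja9_null minus wildtype is 2.27 for Rars. Eif2b1, Eif3a and Eif2b4 follow.

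Other genes of the pathway, taken from lists of known function, were not called on the values as deposited. Of 13 measured genes of termination, recycling and poly(A) binding (of 17 listed), 0 were called in any comparison, and the median was 0.03 for Gja9_null and -0.13 for Gja9_het against wildtype. After local centring Pabpn1, a nuclear poly(A)-binding protein gene, was called between Gja9_null and Gja9_het at 1.65 ± 0.30 (adjusted p = 0.0276, limma), from 1.01 ± 0.48 as deposited. Of 6 measured genes of the synthetase complex and of synthetase subunits outside the symbol rule (of 15 listed), 0 were called. The medians were -0.74 and -0.02, and -0.10 and 0.11 after local centring. The scaffold genes of that complex had opposite signs: Aimp2 differed by 0.83 ± 0.29 (adjusted p = 0.283, limma) and Aimp1 by -0.83 ± 0.53 (adjusted p = 0.592) in Gja9_null. For 5 mitochondrial translation factors (of 10 listed) the medians were -0.33 and 0.02 with 0 called, and Mrrf, the ribosome recycling factor, gave -1.10 ± 0.37 and, after local centring, -0.47.

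Stress response and mTOR genes gave medians of 0.04 in Gja9_null and 0.14 in Gja9_het over 11 measured genes (of 24 listed), again with 0 called. Among them Atf4, the transcription factor whose translation increases when eIF2 is phosphorylated, differed by -0.88 ± 0.33 in Gja9_null and by -0.58 after local centring. Of 15 measured markers of brain cell types, blood and liver, 0 were called in any comparison on the values as deposited, and 4 had an unadjusted p under 0.05 for Gja9_null against wildtype (11.6% of all features). These were Nefm of neurons at -1.74 ± 0.53, the astrocyte genes Fabp7 at 1.66 ± 0.67 and Slc1a3 at 0.90 ± 0.31, and Alas2 of red blood cells at -1.45 ± 0.34. After local centring they were -0.98, 1.97, 0.60 and -0.26, and Slc1a3 was called between Gja9_null and Gja9_het at 0.92 ± 0.21 (adjusted p = 0.0495, limma). Markers within the neuron, astrocyte, microglia and blood lists did not share a sign in Gja9_null as deposited. In the neuron list Syt1 gave -0.77 but Nefl 0.23. In the astrocyte list Glul gave 0.36 but Aldoc -0.24. The blood genes Hbb-b1 and Hba-a2 gave 0.39 and 0.17, opposite in sign to Alas2. Both measured oligodendrocyte markers were lower, Cnp at -0.69 ± 0.70 and Mbp at -0.64 ± 0.92 (-0.55 and -0.06 after local centring). Relative to the mean signal of a sample, Mbp of myelin averaged 3.31, Nefl of neurons 2.08 and Alb of liver -1.72. The part of cell composition in the members' differences was not tested.

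ATF4 binds the amino acid response element in promoters of many synthetase genes, and MYC proteins bind the E-box CACGTG in promoters of many translation genes, which is why these motifs were looked up. Promoters were windows from 250 bases before to 50 bases after the start in the RefSeq table (GRCm38.p6), found for 47 of the 59 members. The core TGATGNAA, searched on both strands, was present in 4 of 47 members (8.51%) beside 4.51% of 27025 genes: Gars, Tars and Iars among 12 synthetases and Eif2s3x among 35 factors. The following stretches, written 5′ to 3′ on the strand of the gene, show the match in capitals as its reverse complement for the 3 genes where it lies before the start.
Gars, chr6:55037941-55038000, plus strand: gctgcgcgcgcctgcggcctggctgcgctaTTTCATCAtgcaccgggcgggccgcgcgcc
Tars, chr15:11399659-11399703, minus strand: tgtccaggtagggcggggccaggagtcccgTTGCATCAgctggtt
Eif2s3x, chrX:94212710-94212777, minus strand: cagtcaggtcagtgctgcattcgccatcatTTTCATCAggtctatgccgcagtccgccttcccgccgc
Gars, Tars, Iars and Eif2s3x differed by 0.24 ± 0.51, -0.28 ± 0.53, 0.50 ± 0.36 and 0.07 ± 0.56 in Gja9_null as deposited. Gars and Iars were positive under every scaling, while the signs of Tars and Eif2s3x depended on it. Tars was positive with local centring (0.24) and quantile normalization (0.09), and Eif2s3x was negative with local centring (-0.06). All 4 were positive with quantile normalization.

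The E-box CACGTG reads the same on both strands and was present in 10 of 47 members (21.3%) beside 8.09% of 27025 genes, in 8 of 35 factors and 2 of 12 synthetases. The stretches of the cap-binding protein gene and of the translocation factor gene are given, with the motif in capitals.
Eif4e, chr3:138527174-138527239, plus strand: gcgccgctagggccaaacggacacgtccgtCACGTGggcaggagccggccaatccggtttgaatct
Eef2, chr10:81176558-81176623, plus strand: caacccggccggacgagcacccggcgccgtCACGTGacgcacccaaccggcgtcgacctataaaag
In Gja9_null and Gja9_het these genes differed from wildtype by -0.14 and -0.07 for Eif4e and by 0.13 and -0.19 for Eef2. Over all 10 members with the motif, 4 had a higher and 6 a lower value in Gja9_null, from -0.70 for Eif3k to 0.50 for Iars. A match is a description of the letters and no evidence of binding in these brains.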

How the data were processed

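Total RNA of each brain sample was labelled with Cy3 or Cy5 and hybridised to spotted 27k mouse cDNA arrays, per the labels. The deposited values are log2 signals relative to each sample's mean, a scale settled from the values. How the authors corrected background and normalized is not stated in the labels, and signal over background cannot be read. The members and gene lists were chosen with earlier results of these data known.

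Of 28704 probes, 13443 had values in all 12 samples, and 10356 of these had 1 gene. Clones were averaged per gene, and other probes were tested singly (9514 features). Which samples shared an array is not in the labels. It was inferred because sample 1 minus 3 correlated with 2 minus 4 over probes, at 0.940, 0.933 and 0.919 in the 3 genotypes. Limma 3.58.1 (R 4.3.3) fitted genotype and dye with the array as a random block (consensus correlation 0.927), and Benjamini-Hochberg adjustment covered the whole table. The dye was taken from the label field, with which the labelling text disagrees for wildtype 3 and Gja9_null 1. The fits were tested on simulated normal data with a shared array part but without stretches of neighbouring probe numbers or disagreeing spots. Those simulations cannot show how the fits behave with such patterns. Genes named are, per comparison, the 8 members of smallest p (the first 4 with every sample), paralogue families, eIF2, eIF2B, eIF2 kinases and members with at least 3 spots. Same-numbered wildtype and Gja9_het samples deviated together (correlations 0.113 to 0.228, over 2 arrays each). The correlations were weaker for Gja9_null with Gja9_het (0.022 to 0.067) and negative for wildtype with Gja9_null (-0.094 to -0.054).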

Additional observations from a re-analysis of the deposited data

How the results depend on the processing

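The comparisons were repeated under 26 alternatives, 1 of them (averaging repeat spots of a clone first) chosen after seeing the data. For the 8 members of smallest p in each comparison (24 differences, 622 alternative values), 608 kept direction and side of the threshold, 4 reversed and 10, all without the array block, passed the threshold. Of all 59 members, 14, 18 and 20 differences (Gja9_null minus wildtype, Gja9_het minus wildtype, Gja9_null minus Gja9_het) changed sign under at least 1 of 4 other scalings. Reversed among the 24 were Qars in Gja9_null minus wildtype (0.0538 with local centring) and Rars in Gja9_null minus Gja9_het (0.29 without the dimmest 25% of probes, 0.16 with the brightest clone per gene, 0.29 without the last 3 of 48 stretches of probe numbers). Without the array block, which treats samples of 1 array as independent, 7 members were called for Gja9_null minus wildtype (1464 features) and 6 for Gja9_null minus Gja9_het (2119 features); no other alternative called a member. Members below an unadjusted p of 0.05 numbered 16, 4 and 14 without the array block for Gja9_null minus wildtype, Gja9_het minus wildtype and Gja9_null minus Gja9_het. For Gja9_null minus wildtype they were 6 with local centring, 2 without the dimmest probes, 2 with only both genotypes in the fit, 2 without the last stretches and 7 without the first Gja9_null array, and 4 to 6 with 1 sample left out. For Gja9_het minus wildtype they were 1 with local centring and 1 with the brightest clone. For Gja9_null minus Gja9_het they were 9 with local centring, 5 with the brightest clone, 4 without the first Gja9_null array, and 1 without the dimmest probes or with only both genotypes.

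The members' median for Gja9_null minus wildtype was 0.0176 with median centring, 0.0794 with quantile normalization, 0.0746 with cyclic loess, 0.0506 with local centring, 0.0732 without the dimmest probes, 0.0151 with the brightest clone and 0.0097 without the first Gja9_null array, and -0.0791 to -0.0106 with 1 sample left out. For Gja9_het minus wildtype it was -0.0368 with local centring. For Gja9_null minus Gja9_het it was 0.0569 with median centring, 0.016 with quantile normalization, 0.10 with local centring, 0.0435 without the dimmest probes, 0.0113 with the brightest clone and 0.0231 without the first Gja9_null array. As deposited the Gja9_het minus wildtype median was 0.0138. The sign of the members' median therefore differed between scalings in every comparison, and the cause was not tested. With the brightest clone Eif2b4 differed by 2.04 ± 0.44 (adjusted p = 0.0717, limma), and without the first Gja9_null array Eif2b2 by -1.44 ± 0.30 (adjusted p = 0.0646). With the replicate number as a block 0 members were called, the Gja9_null minus wildtype median was -0.06, and no call changed. Only 2 arrays per genotype limit the precision.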
